A study of Mus musculus with 8 samples.

Results

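Axon guidance ligands and receptors are the secreted and membrane proteins that steer growing axons. They were chosen by name among protein-coding genes: the class 3 to 7 semaphorins with their plexin and neuropilin receptors, the ephrins with their Eph receptors, the Slits with their Robo receptors, and the netrins and netrin-Gs with DCC and the Unc5 receptors. This gave 70 genes of the 54532 listed, 36 ligands and 34 receptors. RNA sequencing of adult mouse hippocampus covered 4 Kat6a+/- libraries, heterozygous for the histone acetyltransferase gene Kat6a, and 4 WT libraries. The labels name no treatment, sex, age in weeks, litter or batch for either genotype. They do not say how the Kat6a allele was made or that each library is a separate animal, so p-values measure the spread between libraries, part of which may be technical.

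Guidance cues act mostly by repulsion or attraction at the growth cone. Semaphorins signal through plexins, with neuropilins as the binding partner for most class 3 members. Ephrins signal in both directions across a cell contact, the A class through a lipid anchor and the B class through a transmembrane tail. In the adult brain many of these proteins stay at synapses, where ephrin and semaphorin signals act on dendritic spines. In the hippocampus, Epha4 acts on spines in contact with ephrin-A3 of astrocytes, and Sema3e, Sema6 proteins and class A plexins help lay down the layered mossy fibre and entorhinal inputs during development.

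Reads assigned to genes, summed per library, ran from 17730609 to 27875310 in Kat6a+/- and from 16462428 to 22047643 in WT. Of these, 91508 to 133802 reads in Kat6a+/- and 84384 to 108382 reads in WT fell on the guidance genes. Markers of hippocampal fields were present in all 8 libraries, with Bok (CA3) at 41.6 to 59.6 FPKM, Wfs1 (CA1) at 36.9 to 46.9 FPKM and Prox1 (dentate granule cells) at 11.3 to 15.4 FPKM. FPKM is the read count divided by gene length and by sequencing depth, here with size factors in place of library totals. Cortical markers ran from Foxp2, at 0.0372 to 0.115 FPKM, to Fezf2, at 12.7 to 16.5 FPKM. Thalamic markers ran from Lef1, at 0.0707 to 0.231 FPKM, to Calb2, at 6.98 to 15.2 FPKM. Calb2 is also an interneuron marker, and the thalamic marker Slc17a6 stood at 1.51 to 4.52 FPKM. Fewer cells of a type and less RNA per cell cannot be told apart in tissue RNA. Kat6a itself measured 6.06, 7.64, 7.32 and 7.06 FPKM in Kat6a+/- and 9.35, 8.97, 8.55 and 9.71 FPKM in WT, without overlap.

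The levels of the guidance genes ran from 0.0517 FPKM (Epha1) to 68.4 FPKM (Epha4) as means over the 8 libraries. Summed over the 70 genes, FPKM was 707 ± 36.4 in Kat6a+/- and 690 ± 36.8 in WT (SD, n = 4 each). Ligands made up 341 ± 9.69 FPKM in Kat6a+/- and 335 ± 13.5 FPKM in WT, and receptors 367 ± 27.8 FPKM in Kat6a+/- and 355 ± 23.5 FPKM in WT. On average over libraries, 19 genes reached 10 FPKM, 9 ligands and 10 receptors, and 63 reached 0.5 FPKM, the level needed for testing.

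**Figure D1:**
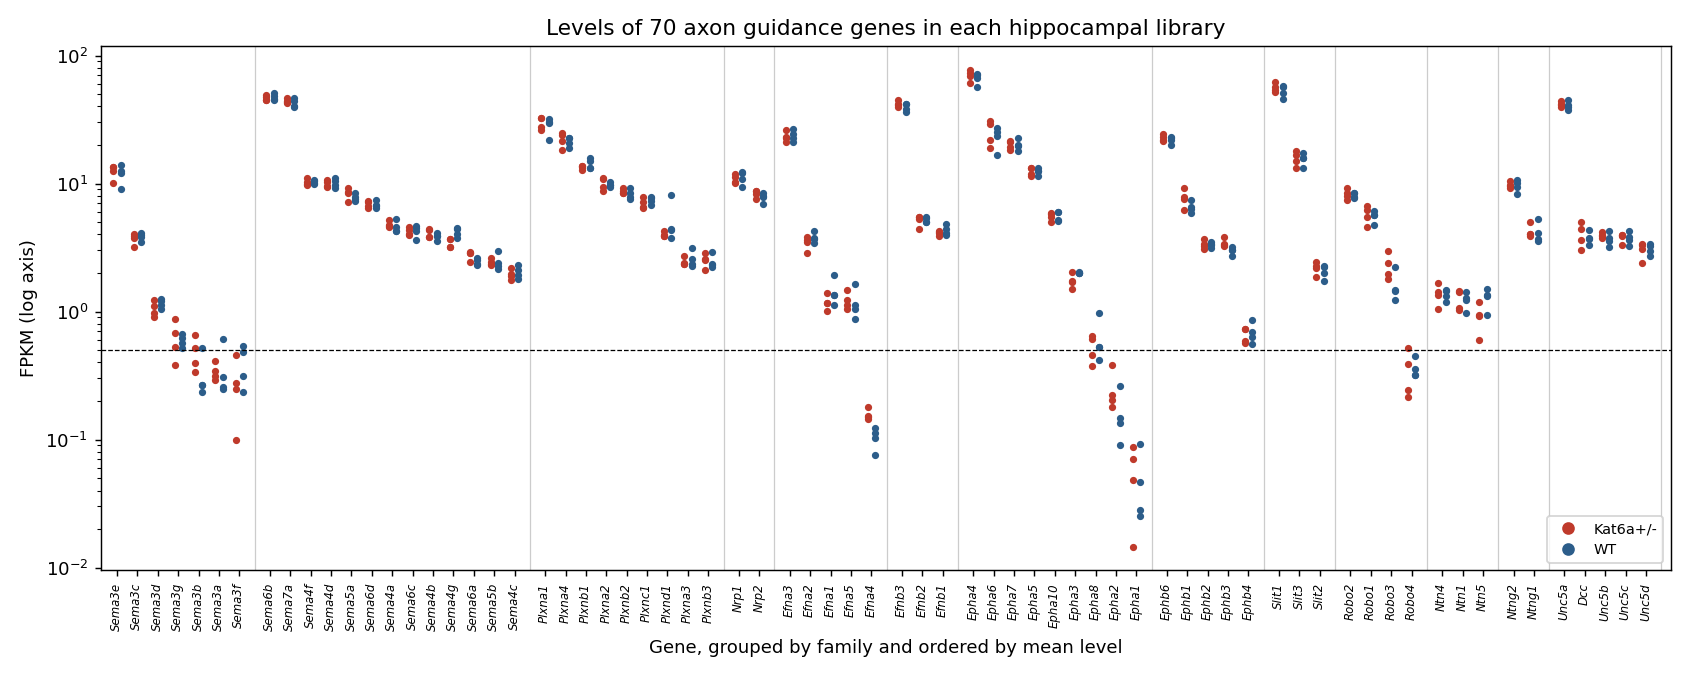
FPKM on a log axis for each of the 70 guidance genes, grouped by family, with 1 point per library (Kat6a+/- left, WT right of each gene). The dashed line marks 0.5 FPKM; Epha4, Slit1, Sema6b, Sema7a, Unc5a and Efnb3 lie at the top, and the 2 genotypes lie close together for nearly all genes.

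Among the ligands, Slit1, a repellent read by Robo receptors, had the highest level. It measured 52.1, 53.6, 57.2 and 61.6 FPKM in Kat6a+/- and 46.1, 57.8, 51.4 and 56.4 FPKM in WT. Slit3 followed at 15.7 ± 1.97 FPKM in Kat6a+/- and 15.5 ± 1.73 FPKM in WT, and Slit2 at 2.19 ± 0.239 FPKM in Kat6a+/- and 2.06 ± 0.245 FPKM in WT (SD, n = 4 each). The Slits differed among themselves by far more than any of them did between genotypes.

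The membrane semaphorins were led by Sema6b, a transmembrane ligand of class A plexins, at 46.9 ± 1.94 FPKM in Kat6a+/- and 47.6 ± 2.43 FPKM in WT. Sema7a, the lipid-anchored semaphorin read by Plxnc1 and integrins, measured 44.0 ± 1.82 FPKM in Kat6a+/- and 42.5 ± 3.16 FPKM in WT. The remaining 11 membrane semaphorins had means between 1.99 FPKM (Sema4c) and 10.3 FPKM (Sema4f). Of the 7 secreted class 3 semaphorins, Sema3e, a ligand of Plxnd1, was the one above 10 FPKM, at 12.4 ± 1.56 FPKM in Kat6a+/- and 11.9 ± 2.06 FPKM in WT. Sema3c measured 3.71 ± 0.344 FPKM in Kat6a+/- and 3.85 ± 0.282 FPKM in WT. Sema3a, Sema3b and Sema3f were below the level for testing, with means of 0.349, 0.399 and 0.333 FPKM over the 8 libraries.

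Each ephrin class had 1 dominant member. Efnb3 encodes an ephrin of the B class and measured 41.8 ± 2.27 FPKM in Kat6a+/- and 39.4 ± 2.71 FPKM in WT, while Efnb2 stood at 5.17 ± 0.540 FPKM in Kat6a+/- and 5.23 ± 0.260 FPKM in WT. Efna3, the ephrin-A3 gene, measured 23.2 ± 2.0 FPKM in Kat6a+/- and 23.7 ± 2.42 FPKM in WT, and Efna2 3.45 ± 0.404 FPKM in Kat6a+/- and 3.79 ± 0.367 FPKM in WT. The netrins were low throughout. Ntn4 had 1.37 ± 0.255 FPKM in Kat6a+/- and 1.36 ± 0.124 FPKM in WT, and Ntn1, the classical attractant read by DCC, 1.24 ± 0.222 FPKM in Kat6a+/- and 1.22 ± 0.192 FPKM in WT. The netrin-Gs, which are lipid-anchored and bind partners on the facing membrane, were higher. Ntng2 measured 9.76 ± 0.549 FPKM in Kat6a+/- and 9.58 ± 0.985 FPKM in WT, and Ntng1 4.24 ± 0.515 FPKM in Kat6a+/- and 4.15 ± 0.806 FPKM in WT. The span of Ntng2 shares 7899 bases, introns included, with that of 6530402F18Rik on the same strand. Overlap of exons was not examined, so mixing of their reads was not tested.

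Among the receptors, Epha4 had the highest level of all 70 genes. It measured 61.1, 69.6, 73.6 and 77.4 FPKM in Kat6a+/- and 56.3, 71.0, 67.3 and 71.1 FPKM in WT. The lowest value in each genotype was that of replicate 1. Among the EphA receptors, Epha6 followed at 25.2 ± 5.80 FPKM in Kat6a+/- and 23.2 ± 4.62 FPKM in WT. Ephb6, an Eph receptor without kinase activity, led the B class at 22.8 ± 1.24 FPKM in Kat6a+/- and 22.0 ± 1.36 FPKM in WT (SD, n = 4 each).

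The plexins were led by Plxna1 at 29.8 ± 3.38 FPKM in Kat6a+/- and 28.5 ± 4.54 FPKM in WT, and by Plxna4 at 22.2 ± 3.0 FPKM in Kat6a+/- and 21.2 ± 1.77 FPKM in WT. Both are partners of neuropilins in reading class 3 semaphorins. Nrp1, the usual binding site of Sema3a, measured 10.9 ± 0.840 FPKM in Kat6a+/- and 11.2 ± 1.35 FPKM in WT. Nrp2, the usual binding site of Sema3f, measured 8.36 ± 0.522 FPKM in Kat6a+/- and 7.80 ± 0.657 FPKM in WT. These receptors were thus measured at levels well above those of Sema3a and Sema3f.

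The Unc5 receptors, which turn netrin attraction into repulsion, were dominated by Unc5a at 41.6 ± 1.91 FPKM in Kat6a+/- and 40.8 ± 3.39 FPKM in WT. Dcc, the netrin-1 receptor, measured 4.01 ± 0.864 FPKM in Kat6a+/- and 3.77 ± 0.411 FPKM in WT. Of the Robos, Robo2 measured 8.26 ± 0.746 FPKM in Kat6a+/- and 8.13 ± 0.372 FPKM in WT, and Robo1 5.75 ± 0.936 FPKM in Kat6a+/- and 5.56 ± 0.558 FPKM in WT. Robo4, known from blood vessels, was below the level for testing with a mean of 0.351 FPKM.

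No guidance gene was called as different between the genotypes after adjustment over all genes. In limma, on log2(FPKM + 0.5), 0 of the 63 tested members and 0 of all 14159 tested genes (0.0%) had an adjusted p under 0.05, and every member had an adjusted p of 0.9998. DESeq2 on the reads recovered from FPKM called 5 genes (0.0353%) and edgeR 0 (0.0%), with 0 members in either. Kat6a itself, at 76.7% of the WT mean, had an adjusted p of 0.9998 in limma, 0.451 in edgeR and 0.00639 in DESeq2. A difference of that size can thus go uncalled in limma and edgeR. At an unadjusted p under 0.05 limma had 4 members, which is 6.35% of those tested, against 4.41% of all tested genes. Robo3 and Ephb3 were on the higher side (all genes 1.78%), and Sema4g and Ntn5 on the lower side (all genes 2.63%). edgeR had 7 such members (all genes 4.35%), adding Ephb1, Epha3 and Sema6a, with 4 higher (all genes 1.81%) and 3 lower (all genes 2.54%). DESeq2 had 6 (all genes 3.3%), the same without Ntn5, with 4 higher (all genes 1.42%) and 2 lower (all genes 1.88%). The groups did not overlap in 2 members (3.17%), against 2.62% of all tested genes. Of the 63, 38 had a positive (60.3%, against 50.6% of all tested genes) and 25 a negative log2 fold change. The median was 0.01 over the members and 0.00101 over all tested genes. Receptors had 21 positive and 10 negative values, and ligands 17 and 15.

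**Figure D2:**
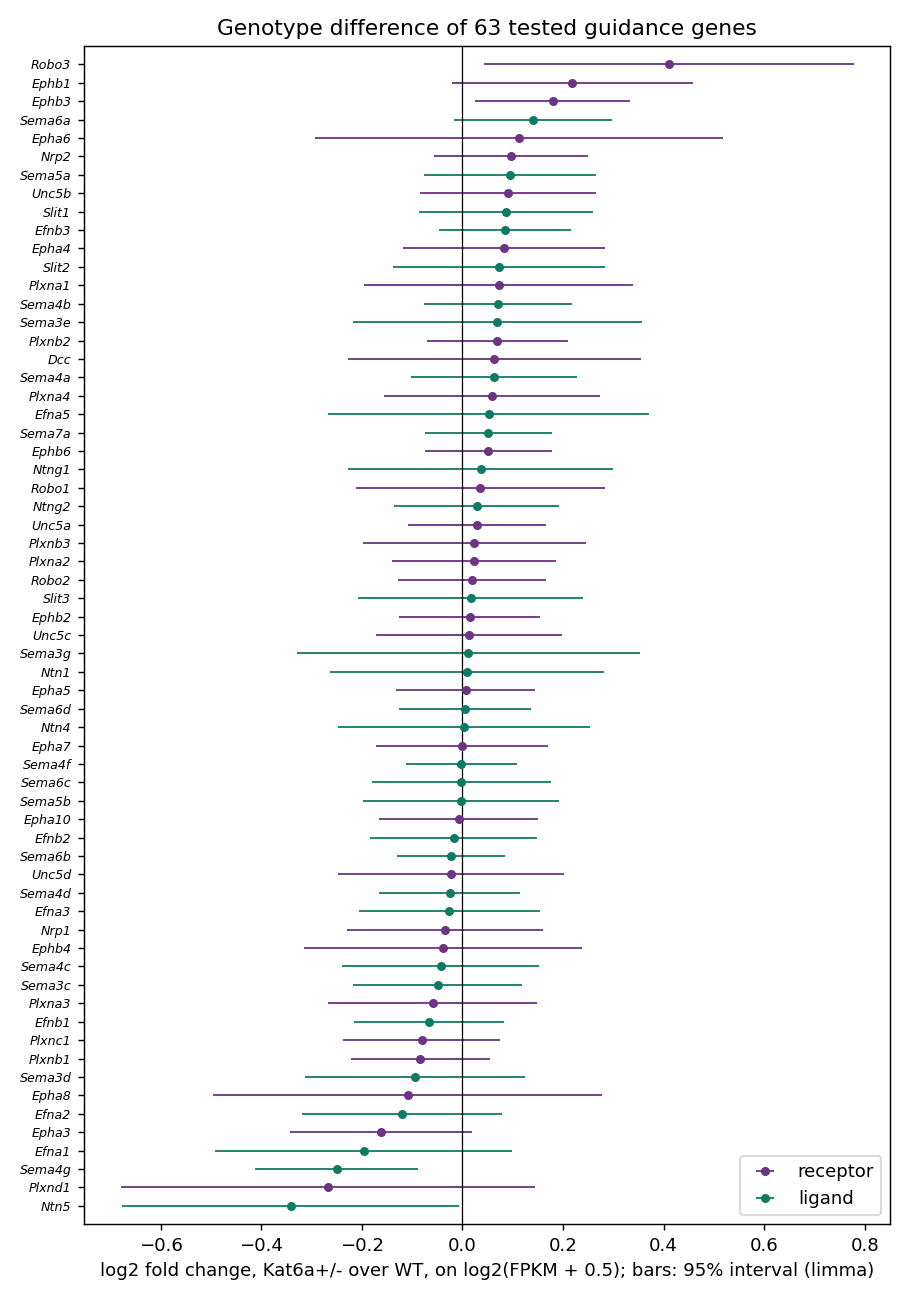
Log2 fold change of Kat6a+/- over WT with its 95% interval (limma) for the 63 tested guidance genes, ordered by size, with receptors in purple and ligands in green. The values run from 0.41 (Robo3) to -0.34 (Ntn5), and the intervals of Robo3, Ephb3, Sema4g and Ntn5 leave out 0 before adjustment.

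Sema4g had the smallest p of all guidance genes. It encodes a transmembrane class 4 semaphorin and measured 3.71, 3.66, 3.20 and 3.17 FPKM in Kat6a+/- and 4.46, 4.42, 4.05 and 3.79 FPKM in WT. All Kat6a+/- values lay below all WT values, and replicates 1 and 2 stood above replicates 3 and 4 in both genotypes. The Kat6a+/- mean was 82.2% of the WT mean, at 3.43 ± 0.289 FPKM against 4.18 ± 0.319 FPKM (SD, n = 4 each). This is a log2 fold change of -0.25 ± 0.07 (SE; 95% interval -0.41 to -0.09). Its unadjusted p was 0.00647 in limma, and the exact two-sided permutation test over 70 assignments gave p = 0.0286, the smallest it can give. It was the 1 tested member without overlap on the lower side (1.59% of members, 1.53% of all tested genes). Sema4g (ENSMUSG00000025207) lies at chr19:44989101-45003397 on the plus strand of GRCm38 and had 269 to 520 reads per library.

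Ephb3 was the 1 tested member without overlap on the higher side (1.59% of members, 1.09% of all tested genes). It encodes a receptor tyrosine kinase for B-class ephrins and measured 3.84, 3.24, 3.28 and 3.39 FPKM in Kat6a+/- and 3.02, 3.17, 2.70 and 3.03 FPKM in WT. Kat6a+/- replicate 2 and WT replicate 2 lay next to each other, so the separation was narrow. The means were 3.44 ± 0.277 FPKM in Kat6a+/- and 2.98 ± 0.195 FPKM in WT (SD, n = 4 each), a ratio of 116%. This is a log2 fold change of 0.18 ± 0.07 (SE; 95% interval 0.02 to 0.33), with an unadjusted p of 0.0273 in limma and an exact permutation p of 0.0286. The unadjusted p in limma was 0.0777 without Kat6a+/- replicate 1 and 0.0783 without WT replicate 3. Ephb3 (ENSMUSG00000005958) lies at chr16:21204755-21223305 on the plus strand.

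Ephb1, a close relative of Ephb3, leaned the same way with more spread. Its values were 6.23, 7.53, 7.91 and 9.23 FPKM in Kat6a+/- and 6.52, 6.31, 7.42 and 5.88 FPKM in WT. The groups overlapped, since Kat6a+/- replicate 1 lay below WT replicates 1, 2 and 3. The log2 fold change was 0.22 ± 0.11 (SE; 95% interval from -0.02 to 0.46), with an unadjusted p of 0.0700 in limma, 0.0282 in edgeR and 0.0219 in DESeq2. Leaving out Kat6a+/- replicate 1 gave 0.31, with an unadjusted p of 0.00741 in limma, and leaving out Kat6a+/- replicate 4 gave 0.13. The p was 0.0356 without WT replicate 3. The other EphB genes had log2 fold changes of 0.05 (Ephb6), 0.01 (Ephb2) and -0.04 (Ephb4). Ephb1 (ENSMUSG00000032537) lies at chr9:101922128-102354693 on the minus strand.

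Robo3 had the largest log2 fold change among the tested members, with wide spread within both genotypes. It encodes a divergent Robo receptor that allows commissural axons to cross the midline. It measured 2.99, 2.37, 1.97 and 1.80 FPKM in Kat6a+/- and 1.48, 2.25, 1.45 and 1.23 FPKM in WT. WT replicate 2 lay above Kat6a+/- replicates 3 and 4, while the other WT libraries lay below all Kat6a+/- libraries. The means were 2.28 ± 0.530 FPKM in Kat6a+/- and 1.60 ± 0.446 FPKM in WT (SD, n = 4 each), and the log2 fold change was 0.41 ± 0.16 (SE; 95% interval from 0.04 to 0.78). The unadjusted p in limma was 0.0323 with a two-sided exact permutation p of 0.0857. Leaving out Kat6a+/- replicate 1 gave 0.29 (unadjusted p = 0.0949 in limma), and the p also exceeded 0.05 without Kat6a+/- replicate 2 (0.0689), WT replicate 1 (0.0641), WT replicate 3 (0.0732) or WT replicate 4 (0.0898). Robo3 (ENSMUSG00000032128) lies at chr9:37415669-37433246 on the minus strand. Its 3′ end faces that of Robo4 on the plus strand across 553 bases, and Robo4 measured 0.242, 0.216, 0.390 and 0.519 FPKM in Kat6a+/- and 0.317, 0.320, 0.358 and 0.448 FPKM in WT.

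Ntn5, a short netrin-like secreted protein, stood on the lower side with few reads behind it. Its values were 0.925, 1.19, 0.932 and 0.595 FPKM in Kat6a+/- and 1.50, 1.34, 1.33 and 0.947 FPKM in WT, from 23 to 67 reads per library. WT replicate 4 lay among the Kat6a+/- values. The Kat6a+/- mean was 71.2% of the WT mean, with a log2 fold change of -0.34 ± 0.15 (SE; 95% interval from -0.68 to -0.01), an unadjusted p of 0.0467 in limma and an exact permutation p of 0.0571. Leaving out Kat6a+/- replicate 4 gave -0.23, and the unadjusted p in limma exceeded 0.05 without any one of Kat6a+/- replicates 1, 3 and 4 or WT replicates 1, 2 and 3 (0.0680 to 0.127). The spans of Ntn5 and of Sec1 on the opposite strand share 10381 bases, introns included, which is most of Ntn5. Ntn5 had 392 reads over the 8 libraries and Sec1 132. Counting is not stated to use strand and overlap of exons was not examined, so mixing of their reads was not tested. Ntn5 (ENSMUSG00000070564) lies at chr7:45684022-45694556 on the plus strand.

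Plxnd1, the receptor of Sema3e, differed through 1 library. It measured 3.93, 3.89, 3.98 and 4.25 FPKM in Kat6a+/- and 8.12, 4.38, 3.76 and 4.35 FPKM in WT. WT replicate 1 alone stood apart, and the other 7 libraries lay between 3.76 and 4.38 FPKM. The log2 fold change was -0.27 ± 0.18 (SE; unadjusted p = 0.177 in limma), and -0.05 without WT replicate 1. That library had 1199 reads on Plxnd1. Of the 8 libraries, it also held the highest mean deviation for meningeal fibroblast (0.68), cortical (0.30) and thalamic markers (0.17). The same held for its astrocyte (0.17), CA1 (0.13) and microglia markers (0.11). It held the lowest mean deviation for ependymal (-0.82), choroid plexus (-0.51), oligodendrocyte (-0.35) and CA3 markers (-0.27). Its endothelial markers stood at 0.0065. The part of these in the Plxnd1 value was not tested.

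**Figure D3:**
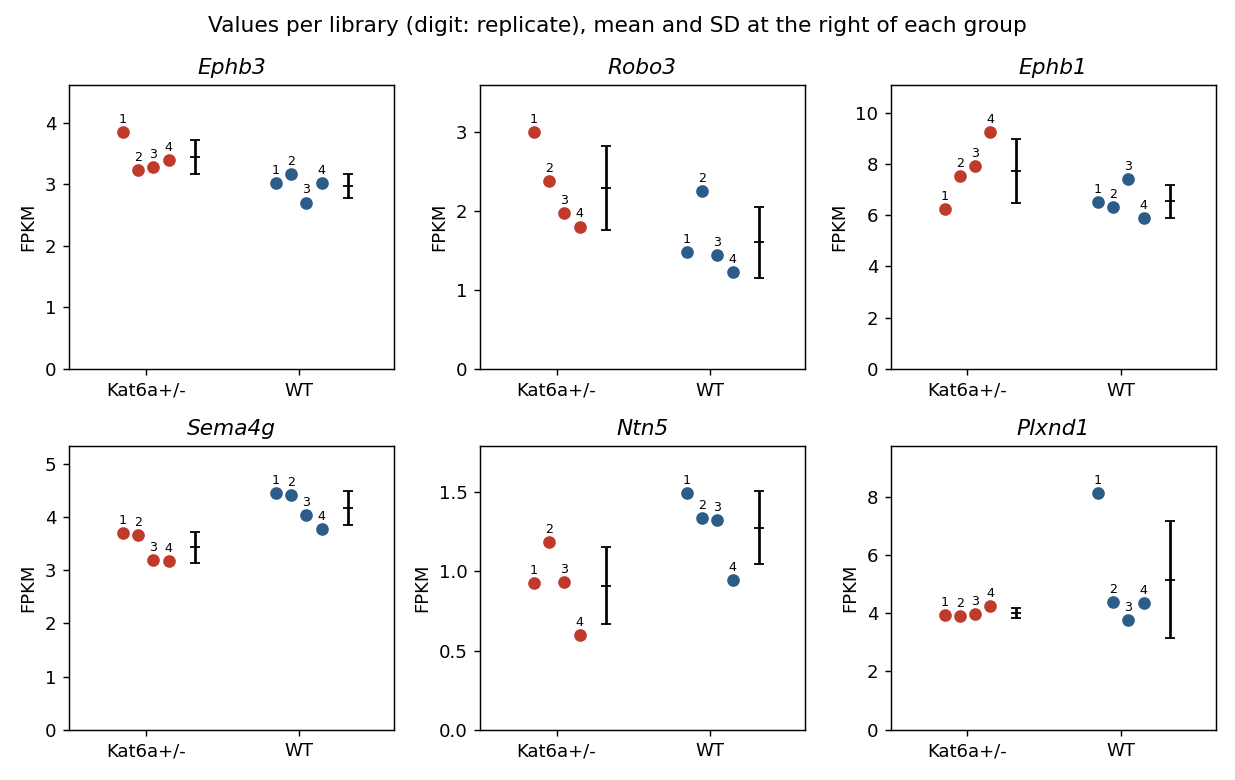
FPKM per library for 6 guidance genes, Kat6a+/- left and WT right in each panel, with the replicate number above each point and the mean ± SD beside each group. Ephb3 and Sema4g separate the genotypes, Robo3, Ephb1 and Ntn5 overlap, and in Plxnd1 WT replicate 1 stands at 8.12 FPKM.

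Of the 605 genes in the authors' deposited table, 4 were guidance genes. In the authors' deposited table Robo3 has a log2 fold change of 0.52 (p = 0.00435), Sema4g of -0.28 (p = 0.00499), Ephb3 of 0.21 (p = 0.0212) and Ephb1 of 0.24 (p = 0.0269). The adjusted p listed for each in the authors' deposited table is 0.9998. These come from the same reads and are no independent support.

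For most guidance genes the data set a bound on the difference in log2(FPKM + 0.5). This scale understates low genes, so the bound does not carry over to FPKM itself for genes such as Epha8 and Efna1. Their means were 0.567 and 1.31 FPKM over the 8 libraries. The 95% interval lay within ±0.5 on this scale in 59 of 63 members (93.7%, against 89.3% of all tested genes), and within ±0.3 in 44 (69.8%, against 68.4%). Within ±0.2 it lay in 18 members (28.6%), fewer than the 39.8% of all tested genes. The 4 members outside ±0.5 were Epha6, Ntn5, Plxnd1 and Robo3. An absolute log2 fold change over 0.2 was seen in 5 members (7.94%, against 8.24% of all tested genes). Sema4f, with the smallest SD within genotypes, measured 10.3, 9.87, 9.82 and 11.0 FPKM in Kat6a+/- and 10.1, 10.6, 10.5 and 9.92 FPKM in WT, and its interval ran from -0.11 to 0.11. The median residual SD of log2 values within genotypes was 0.120 over the members and 0.105 over all tested genes.

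By family, the EphA receptors had 4 positive and 3 negative log2 fold changes, between -0.16 (Epha3) and 0.11 (Epha6). Epha3 measured 1.51, 1.70, 1.72 and 2.04 FPKM in Kat6a+/- and 1.99, 2.02, 1.99 and 1.99 FPKM in WT, so that Kat6a+/- replicate 4 alone reached the WT level (unadjusted p = 0.0741 in limma). The plexins had 5 positive and 4 negative values, the membrane semaphorins 6 and 7, the Slits 3 and 0, the Robos 3 and 0, and the Unc5 receptors with Dcc 4 and 1. The tested ephrin-A genes had 1 positive and 3 negative values, led by Efna1 at -0.20 ± 0.13 (SE; unadjusted p = 0.170 in limma). Sema6a, a transmembrane ligand of class A plexins, measured 2.91, 2.86, 2.44 and 2.86 FPKM in Kat6a+/- and 2.52, 2.35, 2.32 and 2.64 FPKM in WT, with Kat6a+/- replicate 3 inside the WT range (unadjusted p = 0.0736 in limma).

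The 7 members below the level for testing were Sema3a, Sema3b, Sema3f, Efna4, Epha1, Epha2 and Robo4. Efna4 did not overlap, at 0.152, 0.149, 0.144 and 0.179 FPKM in Kat6a+/- and 0.124, 0.0758, 0.113 and 0.104 FPKM in WT, but rested on 2 to 7 reads per library and shares 179 bases with an antisense gene that had 35 reads against 34 for Efna4. In Sema3a, WT replicate 1 stood highest at 0.614 FPKM, with 0.247 to 0.410 FPKM elsewhere. Epha1, with 34 reads in all, overlaps Zyx on the opposite strand.

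Both libraries numbered 1 were low for a group of members. In 14 of the 63 tested members (22.2%) the 2 lowest values were those of Kat6a+/- replicate 1 and WT replicate 1, against 9.92% of all tested genes. The same held of both libraries numbered 2 in 0 members (2.07% of all genes), of those numbered 3 in 3 (3.21%) and of those numbered 4 in 3 (3.76%). The 14 were Dcc, Epha4, Epha5, Epha6, Epha7, Ephb6, Nrp2, Plxna1, Plxna4, Robo1, Sema3e, Slit2, Slit3 and Unc5c. This count was chosen after the values were seen.

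Among these 14, Epha6 had the largest ratio of highest to lowest value (1.85). It measured 18.8, 21.8, 29.4 and 30.7 FPKM in Kat6a+/- and 16.6, 27.1, 23.5 and 25.5 FPKM in WT. Sema3e measured 10.2, 12.6, 13.5 and 13.4 FPKM in Kat6a+/- and 9.02, 12.1, 12.5 and 13.9 FPKM in WT. Plxna1 measured 26.2, 27.6, 32.5 and 32.8 FPKM in Kat6a+/- and 21.8, 30.5, 29.7 and 31.9 FPKM in WT. In all 3, replicate 1 was the lowest of its genotype, which follows from how the 14 were picked. The median genomic span was 344 kb over the 14 genes and 40.2 kb over the other 49 tested members, and the median exon length 9584.5 bases and 6493 bases. Among the 14, Ephb6, Epha6 and Slit3 lay below 6493 bases of exon length, at 3773, 5289 and 6067 bases. The part of gene length in these values was not tested.

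**Figure D4:**
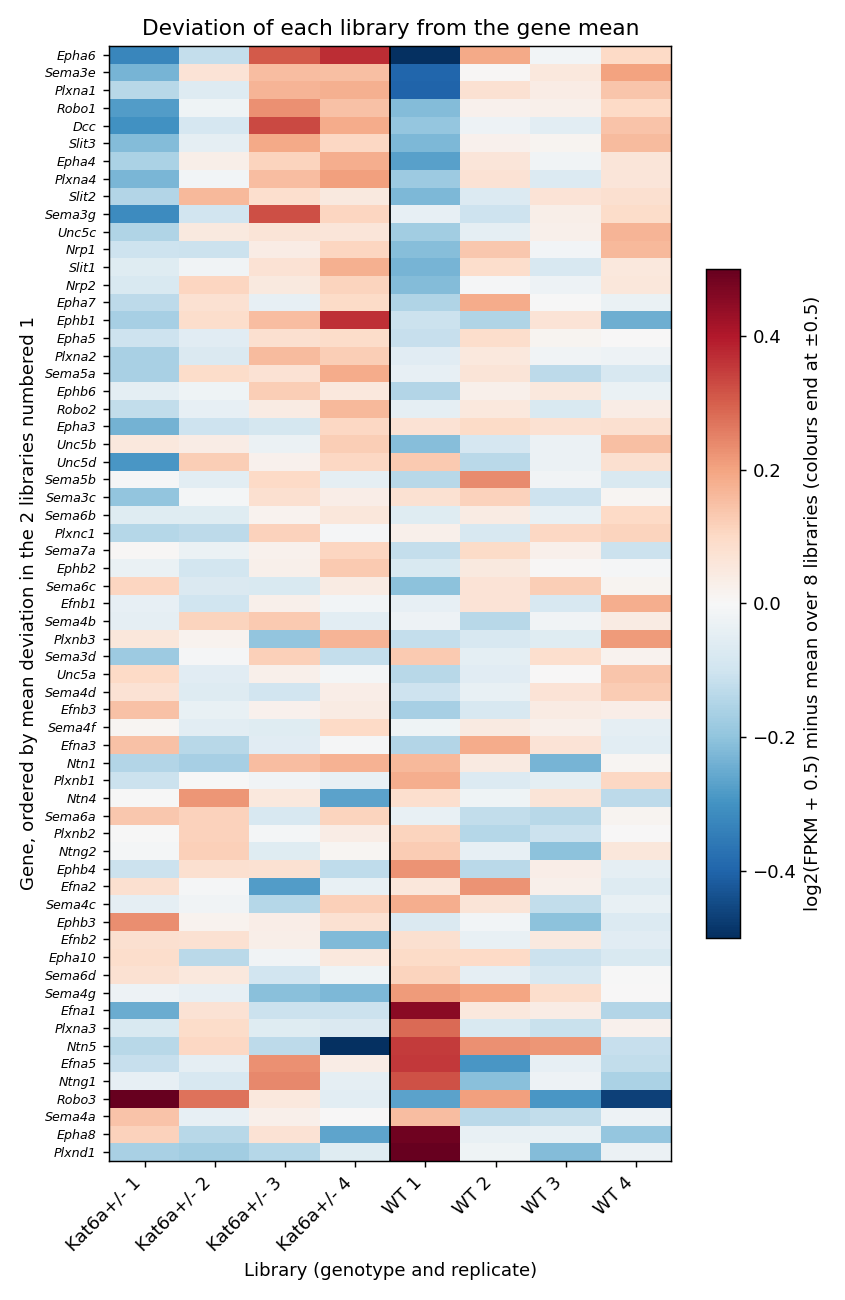
Log2(FPKM + 0.5) of each library minus the mean over the 8 libraries for the 63 tested guidance genes, with the Kat6a+/- libraries left of the line and the WT libraries right of it. Genes run from Epha6, lowest in both libraries numbered 1, down to Plxnd1, highest in WT replicate 1.

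Marker lists also differed between these libraries, in their mean log2 deviation from each gene's mean. Oligodendrocyte markers (10 of 10 tested) had a mean deviation of 0.23 in Kat6a+/- replicate 1, the highest of the 8 libraries, and of -0.35 in WT replicate 1, the lowest. Astrocyte markers (8 of 8) stood at -0.10 in Kat6a+/- replicate 1 and 0.17 in WT replicate 1. CA3 markers (7 of 7) stood at 0.03 in Kat6a+/- replicate 1 and -0.27 in WT replicate 1. Their part in the guidance values was not tested. Interneuron markers had negative log2 fold changes in 11 of 12 genes, with mean deviations from -0.14 to -0.06 in Kat6a+/- and from 0.06 to 0.13 in WT, while log2 fold changes were positive in 10 of 10 oligodendrocyte, 7 of 7 dentate granule, 7 of 7 CA3 and 5 of 5 ependymal markers and negative in 7 of 8 astrocyte markers. Of these other lists, each had mean deviations that overlapped between the genotypes. The part of any list in the values of Sema4g, Ntn5, Robo3 and Ephb3 was not tested. Summed interneuron markers ran from 631 to 665 FPKM in Kat6a+/- and from 634 to 726 FPKM in WT. Without both libraries numbered 1, an alternative chosen after the data were seen, 0 members were called, Sema4g kept a log2 fold change of -0.25, and Robo3 and Ephb3 had 0.27 and 0.14 (unadjusted p = 0.156 and 0.0967 in limma).

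Of 73 co-receptors, adhesion partners and effectors of guidance, such as neogenin, the collapsin response proteins and the Slit-Robo GTPase activators, 72 were tested. Their log2 fold changes were positive in 42 and negative in 30, with a median of 0.01, while 50.6% of all tested genes had a positive value. At an unadjusted p under 0.05 limma had 1 (1.39%, against 4.41% of all tested genes) and 0 passed adjustment. The 1 gene was Farp1, which acts with Sema6a and Plxna4 in dendrites, at 12.9 ± 0.544 FPKM in Kat6a+/- and 14.5 ± 1.48 FPKM in WT (SD, n = 4 each), a log2 fold change of -0.17 with overlapping groups (unadjusted p = 0.0357). Leaving out WT replicate 1 gave -0.10.

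A promoter window, the 250 bases before the RefSeq start of GRCm38.p6, was matched for 60 of the 70 members. For some, the RefSeq start lay far from the gene start of the deposited table. The distance was 354843 bases for Robo1, 271370 for Sema3a, 37064 for Sema4d and 4906 for Ntng2. All 60 windows are counted below, with that of Sema4g, which lies almost wholly inside the annotated gene. The GC box GGGCGG, or CCGCCC on the other strand, was found in 43 of these windows (71.7%), against 44.5% of the 16494 protein-coding windows examined and 61.1% of those of tested protein-coding genes. Among tested members it was found in 41 of 55 (74.5%). TATAAA on either strand was found in 2 windows (3.33%), those of Slit2 and Efnb2, against 11.9% of all. The share was 3.64% in tested members and 5.80% in tested protein-coding genes. The median number of CpG sites was 16 in member windows and 10 over all protein-coding windows, but 17 in windows of tested members and 16 in those of tested protein-coding genes. The median observed-over-expected CpG ratio was 0.669 in tested members and 0.738 in tested protein-coding genes. A match is a description of letters, and no measurement here bears on binding.

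The upstream sequences of Ephb3, Ephb1 and Ntn5, 3 of the genes described by library above, are shown as examples of how member promoters differ. They are given 5′ to 3′ up to the gene start of the deposited table, with GC boxes in capitals. That of Ephb3 (chr16:21204545-21204754, plus strand) holds 2 GC boxes and 11 CpG sites, that of Ephb1 (chr9:102354694-102354943, minus strand) 0 GC boxes and 10 CpG sites, and that of Ntn5 (chr7:45683772-45684021, plus strand) 0 GC boxes and 2 CpG sites. Of Sema4g no sequence is shown, since its RefSeq window lies almost wholly inside the annotated gene.
Ephb3: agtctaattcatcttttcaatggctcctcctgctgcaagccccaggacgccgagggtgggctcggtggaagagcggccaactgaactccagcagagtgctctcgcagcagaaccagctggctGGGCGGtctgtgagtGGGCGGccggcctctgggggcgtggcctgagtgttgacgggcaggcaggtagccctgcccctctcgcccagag
Ephb1: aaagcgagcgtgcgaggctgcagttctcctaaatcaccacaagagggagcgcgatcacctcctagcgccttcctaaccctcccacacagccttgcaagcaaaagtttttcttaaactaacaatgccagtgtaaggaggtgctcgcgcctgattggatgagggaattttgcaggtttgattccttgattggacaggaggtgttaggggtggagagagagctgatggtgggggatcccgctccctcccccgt
Ntn5: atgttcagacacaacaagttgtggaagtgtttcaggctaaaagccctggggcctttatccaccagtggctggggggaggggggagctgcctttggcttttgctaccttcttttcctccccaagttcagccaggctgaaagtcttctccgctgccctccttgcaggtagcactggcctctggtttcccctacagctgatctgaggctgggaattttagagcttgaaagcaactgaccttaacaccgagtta
The windows of Ephb3 and Ephb1, whose transcripts had log2 fold changes of 0.18 and 0.22, thus do not share the GC box, and the Ntn5 window is poor in CpG.

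Several members lie beside each other. Efna1, Efna3 and Efna4 follow one another on the minus strand of chromosome 3, with gaps of 32756 and 10424 bases, and measured means of 1.31, 23.5 and 0.130 FPKM over the 8 libraries. Sema3d, Sema3a and Sema3e lie within gaps of 536465 and 422710 bases on the plus strand of chromosome 5, with means of 1.11, 0.349 and 12.2 FPKM. Other neighbours had closer levels, such as Plxna3 and Plxnb3 on chromosome X, with means of 2.51 and 2.49 FPKM, and Robo1 and Robo2 on chromosome 16, with 5.65 and 8.20 FPKM.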

How the data were processed

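The authors deposited FPKM per gene and library for all genes, and for the 605 genes of their comparison whole read counts, a normalised signal that equals the count divided by 1 factor per library, log2 fold changes, and unadjusted and adjusted p-values, per the file headers. STAR 2.5, HTSeq, DESeq2 and GRCm38 (mm10) are named in the submitters' processing notes. Neither the annotation release nor the strand setting is named there. FPKM times gene length times 1 constant per library gave whole reads within 0.01 for 100% of values, and these equalled the deposited counts.

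The members and lists were chosen with earlier results of these data known. Tests were run with limma 3.58.1 under R 4.3.3, on log2(FPKM + 0.5) of genes averaging 0.5 FPKM or more, with a mean-variance trend and genotype as the single factor, two-sided, with Benjamini-Hochberg adjustment over 14159 genes at 0.05. Fold changes on this scale understate low genes. The recovered reads went into edgeR 4.0.16, by quasi-likelihood, and into DESeq2 1.42.0. The tests across genes were tested on simulated data. Marker deviations are means over listed genes of log2 values minus the gene mean. Genes were named where the unadjusted limma p was under 0.05, where groups did not overlap, as the 2 highest of a family, or from the authors' table; Epha3, Sema6a, Sema4f, Plxnd1, Slit2 and further ones were named after their values were seen.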

Additional observations from a re-analysis of the deposited data

Results flagged for a closer look

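In 126 groups of 4 libraries (63 tested members in each genotype), 6 held a library far from the other 3 by Dixon's criterion, which chance gives in about 1 of 20 groups (6.3 of 126). Plxnd1 measured 8.12 FPKM in WT replicate 1, against 3.76 to 4.38 FPKM in the other WT libraries. Ntng1 measured 5.01 FPKM in Kat6a+/- replicate 3, against 3.91 to 4.03 FPKM in the rest of that genotype, and WT replicate 1 reached 5.31 FPKM. Unc5c measured 3.34 FPKM in Kat6a+/- replicate 1, against 3.91 to 3.96 FPKM in the others. Sema6a measured 2.44 FPKM in Kat6a+/- replicate 3, against 2.86 to 2.91 FPKM. Plxna3 measured 2.70 FPKM in Kat6a+/- replicate 2, against 2.35 to 2.38 FPKM. Plxnb3 measured 2.94 FPKM in WT replicate 4, against 2.24 to 2.35 FPKM. The Plxnd1 log2 fold change was -0.27 over all libraries and -0.05 without WT replicate 1.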

How the results depend on the processing

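Under 18 alternatives, among them other pseudocounts, filters, scalings and tests, 0 guidance members were called, and Sema4g, Ephb3, Ephb1, Robo3, Ntn5, Plxnd1 and Farp1 kept their direction. All genes called numbered 5 with DESeq2 and 0 to 1 when leaving out each replicate. Members at an unadjusted p under 0.05 numbered 7 with edgeR and 2 to 4 when leaving out each replicate, 2 without WT replicate 1 or WT replicate 3. Members without overlap numbered 2 to 4 when leaving out each replicate, 4 without Kat6a+/- replicate 1 or WT replicate 4, and 4 with both libraries numbered 1 left out. Partners at an unadjusted p under 0.05 numbered 0 with scaling to a common sum, 2 with edgeR, 2 with DESeq2, 0 with the replicate block and 0 to 2 when leaving out each replicate. The causes were not tested. The member median ran from -0.01 to 0.04. Labels share replicate numbers but state no pairing, and none was taken in the main fit. Same-numbered libraries correlated at 0.17, -0.07, 0.07 and 0.01 in their deviations (numbers 1 to 4). The 0.17 of number 1 was the highest of any pair across genotypes. The replicate block left 4 members at an unadjusted p under 0.05 and called 0, as did a term for numbers 1 and 2 against 3 and 4. With that term Sema4g had an unadjusted p of 0.000552 and an adjusted p of 0.733 in limma. Depth limits Ntn5, with 23 reads in 1 library, while the 7 untested members fell below the FPKM level set for testing.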
